A study of Mus musculus with 12 samples.

Results

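The row of the ribosomal RNA precursor and 9 genes of ribosome production were followed across 12 RNA sequencing libraries. They came from the tibialis anterior of the mouse, the fast muscle at the front of the shin. The 10 members were Rn45s, the row of the long ribosomal RNA precursor, the RNA polymerase I genes Polr1a, Polr1b and Ubtf, the transcription factor gene Myc, the nucleolar protein genes Ncl and Npm1, and the box C/D ribonucleoprotein genes Fbl, Nop56 and Nop58. They were chosen by name and function with their measured levels in these 12 libraries known, so their values are a description and no test. Calls of members are counted further below, and nothing is read from them. All 10 of them were found among 26264 rows, and all passed the filter on low counts that kept 13499 genes. The libraries came from muscle injected with a matrix gel (gel, n = 4), from muscle injected with phosphate-buffered saline (PBS), the vehicle (n = 4), and from uninjured muscle (n = 4). Per the labels, 50 µl was injected, the gel at 6 mg/ml into the left leg and PBS into the right leg, so the side of the body cannot be told apart from the treatment. The series title places the work in recovery from acute and disuse injury of muscle. No source used here gives the kind of injury, the time of collection or the strain, age and sex of the mice.

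Ribosome production begins in the nucleolus, where RNA polymerase I copies the repeated ribosomal DNA into a long precursor. That precursor is modified by small nucleolar RNAs (snoRNAs) with their proteins, cut, and assembled with ribosomal proteins into the small and large subunits. MYC is a transcription factor that, paired with its partner MAX, drives growth genes, including many of ribosome assembly, and in skeletal muscle ribosome production is known to accompany growth and to fall with disuse.

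Library totals were 15626086 to 22182483 counts in gel libraries, 16714543 to 20488409 in PBS libraries and 15970781 to 18787964 in uninjured libraries. Gel library 3 was unlike the rest of its group, at 5.39 on the first principal component, where gel libraries 1, 2 and 4 lay at -67.4, -84.1 and -91.4. Its summed level of 12 macrophage markers was 100.5 CPM (counts scaled to a common library total), against 995 to 1807 CPM in the other gel libraries, 29.1 to 63.1 CPM in PBS libraries and 40.8 to 81.2 CPM in uninjured libraries. All 12 of those markers had a higher mean in gel than in PBS libraries. The marker at 0 in some libraries was Adgre1, in at least 1 PBS and 1 uninjured library. Fibre genes such as Acta1 and Myh4 were abundant, and 7 of them summed to 112459 CPM in gel, 153052 CPM in PBS and 164991 CPM in uninjured libraries on average. PBS library 4 held 127105 CPM, where PBS libraries 1 to 3 held 157900 to 164210 CPM. The 7 genes did not all move together. By edgeR, 1 rose (14.3%, against 16.6% of all genes) and 4 fell (57.1%, against 13.2%) in gel over PBS. In whole muscle, fewer cells of a type and less RNA per cell cannot be told apart.

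Rn45s was the member that differed most between the groups, and it was low in PBS-injected muscle. It stood at 94.1, 126, 103 and 135 CPM in gel libraries 1 to 4. In PBS libraries 1 to 4 it stood at 27.6, 18.1, 23.6 and 36.4 CPM, and in uninjured libraries 1 to 4 at 77.5, 79.8, 106.4 and 107.6 CPM. Every PBS library lay below every gel and every uninjured library, while the gel and uninjured libraries overlapped. The means were 114 ± 19.0 CPM in gel, 26.4 ± 7.69 CPM in PBS and 92.8 ± 16.4 CPM in uninjured libraries (SD, n = 4 each). The log2 fold change was 2.12 ± 0.20 (SE) for gel over PBS, a 4.33-fold difference. It was -1.81 ± 0.20 for PBS over uninjured and 0.30 ± 0.19 for gel over uninjured. Both comparisons that involve PBS share its libraries, so they are not separate evidence.

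The difference was present in each same-numbered pair of libraries. Gel and PBS libraries of the same number are read here as the left and right leg of the same mouse, and Rn45s was higher in the gel leg by 1.77, 2.79, 2.12 and 1.89 on the log2 CPM scale in animals 1 to 4. Leaving out any 1 of the 12 libraries kept the gel over PBS value between 1.96 and 2.28. Without gel library 3, the gel library with few macrophage transcripts, the value was 2.15 ± 0.21. With gel library 3 kept, its own 103 CPM lay above the highest PBS value of 36.4 CPM. Scaling by library totals alone gave 2.32 for gel over PBS, -1.74 for PBS over uninjured and 0.58 for gel over uninjured.

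**Figure D1:**
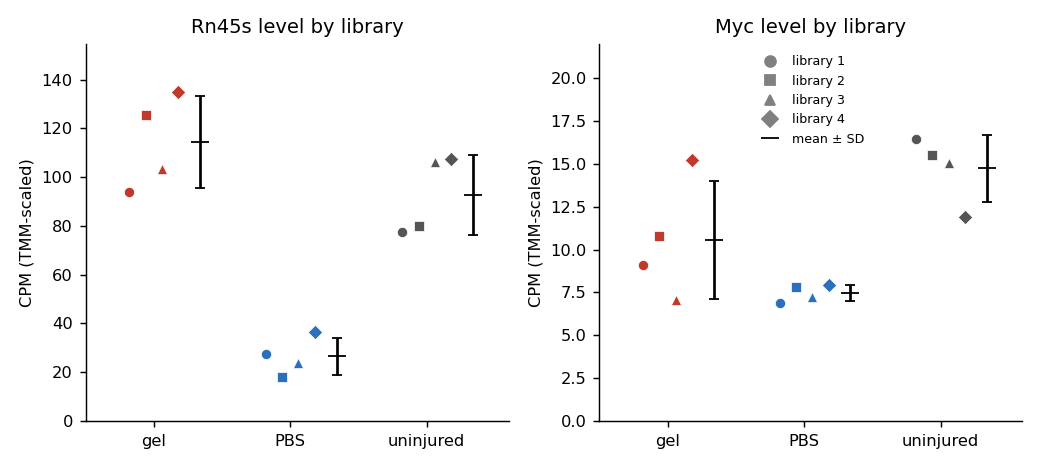
Levels of Rn45s (left) and Myc (right) in CPM in gel, PBS and uninjured libraries, with 1 symbol for each library and the bar showing mean ± SD (n = 4). The PBS libraries of Rn45s lie between 18.1 and 36.4 CPM, below all others, and the PBS libraries of Myc lie between 6.91 and 7.92 CPM, below all uninjured libraries.

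The Rn45s counts behind these levels were 1652 to 3701 in gel, 333 to 606 in PBS and 1330 to 1699 in uninjured libraries. Most small counts in these libraries were even, so counts may include both mates of a read pair and exceed the number of fragments. The row took between 0.00176% and 0.0167% of the counts of a library. Mature ribosomal RNA makes up most of the RNA of a cell, and very little of it was counted here. It is cut from the precursor, so reads of the Rn45s row cannot be assigned to precursor or to mature RNA. Whether the libraries were made by poly(A) selection or by removal of ribosomal RNA is not given in the sources used here. Ribosomal DNA has many near-identical copies, and how reads with several matches were counted is not given either, so the Rn45s level is uncertain in scale. The ribosomal RNA rows Rn18s and Rn5s held 0 counts in all 12 libraries. How reads shared between ribosomal RNA rows were assigned is not given, so these 0 counts are no measure of other ribosomal RNA.

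Summed levels of other RNAs that carry no poly(A) tail were also lowest in PBS libraries. For the single rows Malat1, Neat1 and Rn7sk, PBS and gel libraries overlapped. Summed over 124 snoRNA and small Cajal body RNA (scaRNA) rows, of which 89 had a count, the level was 11.4 ± 1.61 CPM in gel, 6.62 ± 0.58 CPM in PBS and 11.7 ± 2.13 CPM in uninjured libraries (SD, n = 4 each). The PBS libraries lay between 5.98 and 7.26 CPM, below the 9.16 to 12.8 CPM of gel libraries and the 9.44 to 13.7 CPM of uninjured libraries. A further 11 short untailed rows, 4 of them with a count, summed to 3.66 ± 2.40 CPM in gel, 1.59 ± 0.50 CPM in PBS and 4.66 ± 1.58 CPM in uninjured libraries. Gel library 2 raised that gel mean, at 7.24 CPM. Gel libraries 1, 3 and 4 held 2.16, 2.69 and 2.55 CPM, where the highest PBS library held 2.06 CPM. Malat1, a long nuclear RNA whose end is formed without a poly(A) tail, averaged 237 ± 39.7 CPM in gel, 172 ± 27.5 CPM in PBS and 312 ± 55.7 CPM in uninjured libraries. Its PBS library 4, at 195.9 CPM, lay above gel library 3, at 190.5 CPM. Neat1, a long nuclear RNA given beside it, averaged 861 ± 35.2 CPM in gel, 796 ± 265 CPM in PBS and 1171 ± 150.2 CPM in uninjured libraries, and PBS library 4, at 1192 CPM, lay above every gel library. Rn7sk, which restrains transcription elongation, averaged 1.95 ± 0.80 CPM in gel, 1.37 ± 0.52 CPM in PBS and 3.71 ± 1.15 CPM in uninjured libraries, so its gel level was nearer to PBS.

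Of the 7 short untailed rows with enough counts for a test, 6 had a log2 fold change above 0 in gel over PBS and 0 in PBS over uninjured. By edgeR, 2 rose in gel over PBS (28.6%, against 16.6% of all genes) and 1 fell in PBS over uninjured (14.3%, against 3.39%). Rpph1, the RNA of ribonuclease P, rose by 3.18 ± 0.77 in gel over PBS (edgeR adjusted p = 0.00742). It stood at 0.57, 3.78, 0.61 and 1.24 CPM in gel libraries 1 to 4, so gel library 2 was far the highest. PBS libraries held 0.10 to 0.24 CPM and uninjured libraries 0.27 to 1.77 CPM. Snord104, a box C/D snoRNA, rose by 1.81 ± 0.61 (edgeR adjusted p = 0.0344). Its call was lost without gel 1, gel 2, gel 4, any 1 PBS library, uninjured 1, uninjured 2 or uninjured 3 (0.0511 to 0.11), with limma voom (0.0598) and with no filter (0.0828). These rows are low, with 196 counts of Rpph1 and 103 of Snord104 over all 12 libraries. Rn7sk fell by 1.44 ± 0.38 in PBS over uninjured (edgeR adjusted p = 0.0366), and that call was lost without PBS 1, PBS 2, PBS 4, uninjured 1, uninjured 2 or uninjured 4 (0.0679 to 0.108). The snoRNA rows lie in introns of other genes, so their reads may come from host transcripts. The part of library preparation in the Rn45s difference was not tested.

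Host genes of snoRNAs, which carry those RNAs in their introns, were lower in PBS-injected muscle too. Of 16 host genes tested, 5 rose (31.2%, against 16.6% of all genes) and 0 fell in gel against PBS by edgeR, with a median log2 fold change of 0.68, where the median over all genes tested was 0.04. Against uninjured muscle, 0 rose and 4 fell in PBS (25%, against 3.39% of all genes), with a median of -0.71 and all 16 below 0, where the median over all genes was 0.00. Snhg3 had 6.20 to 11.2 CPM in gel, 2.94 to 4.89 CPM in PBS and 6.84 to 10.6 CPM in uninjured libraries. It rose by 1.01 ± 0.22 on the log2 scale in gel over PBS (edgeR adjusted p = 0.00455) and had a log2 fold change of -1.06 ± 0.22 in PBS over uninjured (edgeR adjusted p = 0.0103). Snhg20 rose by 1.04 ± 0.21 in gel over PBS (edgeR adjusted p = 0.00307), and Snhg1 fell by 1.18 ± 0.25 in PBS over uninjured (edgeR adjusted p = 0.0121). The count of 5 was 3 without gel 2, 8 without gel 3, 2 without gel 4, 3 without PBS 3 and 3 with animal as a block. The count of 4 was 7 without gel 3, 2 without PBS 2 and 2 without uninjured 4. In gel over uninjured, 2 rose and 1 fell, a count of 3 that was 1 without gel 2, gel 4, uninjured 1, uninjured 2 or uninjured 3.

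Myc was lowest in PBS libraries and highest in uninjured libraries. It stood at 9.11, 10.8, 7.08 and 15.2 CPM in gel libraries 1 to 4, at 6.91, 7.83, 7.21 and 7.92 CPM in PBS libraries 1 to 4, and at 16.4, 15.5, 15.1 and 11.9 CPM in uninjured libraries 1 to 4. The PBS and uninjured libraries did not overlap, whereas gel libraries overlapped both. Gel library 3, at 7.08 CPM, lay within the PBS range, and gel library 4, at 15.2 CPM, lay within the uninjured range. The log2 fold change was 0.51 ± 0.20 for gel over PBS, -0.98 ± 0.20 for PBS over uninjured and -0.48 ± 0.20 for gel over uninjured. The gel over PBS value was 0.25 without gel library 4 and 0.64 without gel library 3. The gel over uninjured value was -0.74 without gel library 4 and -0.17 with library totals alone. Within animals, the gel leg was higher by 0.39, 0.46 and 0.93 in animals 1, 2 and 4 and differed by -0.03 in animal 3 (log2 CPM). Macrophage markers also differed among the gel libraries, as given above, and their part in the Myc level of gel muscle was not tested.

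Max, the obligate partner of MYC and not itself a member, fell in PBS-injected muscle. It stood at 37.3, 41.7, 34.2 and 39.98 CPM in gel libraries 1 to 4, at 29.2, 29.1, 34.7 and 32.7 CPM in PBS libraries 1 to 4, and at 48.3, 52.6, 54.0 and 59.3 CPM in uninjured libraries 1 to 4. All uninjured libraries lay above all injected ones. The log2 fold change was -0.77 ± 0.11 for PBS over uninjured (edgeR adjusted p = 0.000977) and -0.48 ± 0.11 for gel over uninjured (edgeR adjusted p = 0.00566). With library totals alone, the adjusted p of the gel over uninjured change was 0.216.

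Of 14 genes around MYC besides Myc itself, 1 rose and 3 fell in gel over PBS, 1 rose and 1 fell in PBS over uninjured, and 3 rose and 5 fell in gel over uninjured. The shares called were 28.6%, 14.3% and 57.1%, against 29.8%, 6.17% and 25.6% of all genes. Mxi1, an antagonist that competes for MAX, fell by 0.51 ± 0.14 in gel over PBS (edgeR adjusted p = 0.0142). Fbxw7, which marks MYC protein for destruction, rose by 0.83 ± 0.15 in gel over uninjured (edgeR adjusted p = 0.0016). Mxd4, another antagonist, fell by 0.92 ± 0.18 in gel over uninjured (edgeR adjusted p = 0.00222), as did Mlxip, another of these genes, by 0.63 ± 0.13 (edgeR adjusted p = 0.00263). Of the 4 called in gel over PBS, 1 was called without gel 2, 7 without gel 3, 2 without gel 4 and 2 without PBS 2, and 3 were called with animal as a block. With library totals alone the split turned to 5 higher and 1 lower in gel over PBS and 5 higher and 2 lower in gel over uninjured. Of the 8 in gel over uninjured, 5 were called without gel 4, without uninjured 1 or without uninjured 2. The rise in PBS over uninjured was in Mycn, at 1.25 ± 0.70 CPM in PBS and 0.271 ± 0.23 CPM in uninjured libraries (SD, n = 4 each), with an edgeR adjusted p of 0.0475. That call was lost without gel 2 (0.059), gel 4 (0.0549), PBS 1 (0.0911), PBS 2 (0.162), PBS 3 (0.0883), uninjured 1 (0.119), uninjured 2 (0.141) or uninjured 4 (0.152), and with limma voom (0.101).

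Of 18 genes widely described as MYC targets outside ribosome assembly, 3 rose and 1 fell in gel over PBS, 2 rose and 0 fell in PBS over uninjured, and 5 rose and 1 fell in gel over uninjured. The shares that rose were 16.7%, 11.1% and 27.8%, against 16.6%, 2.79% and 14.5% of all genes, so that in gel over PBS was the share of all genes. With library totals alone 8 rose and 1 fell in gel over PBS, 4 rose and 0 fell in PBS over uninjured, and 9 rose and 1 fell in gel over uninjured. Odc1, the first enzyme of polyamine synthesis, fell by 1.25 ± 0.23 in gel over uninjured (edgeR adjusted p = 0.00222), whereas Nme1, a nucleoside diphosphate kinase, rose by 0.84 ± 0.17 (edgeR adjusted p = 0.00241). Tfrc, the transferrin receptor, rose by 0.93 ± 0.15 in gel over uninjured (edgeR adjusted p = 0.000759). Tfrc also rose by 0.68 ± 0.15 in PBS over uninjured (edgeR adjusted p = 0.01503, and 0.0567 without PBS 2). Hspd1, a mitochondrial chaperone, fell by 0.74 ± 0.16 in gel over PBS (edgeR adjusted p = 0.00389). Its levels were 43.7 to 80.9 CPM in gel, 88.9 to 115 CPM in PBS and 59.6 to 70.5 CPM in uninjured libraries. Every PBS library thus lay above every uninjured library, while gel and uninjured libraries overlapped. The gel over PBS count of 4 was 2 without gel 2, 9 without gel 3 and 1 without gel 4. The PBS over uninjured count of 2 was 6 without gel 3, 0 without PBS 2, and 1 without PBS 3, uninjured 1, uninjured 2 or uninjured 4. The gel over uninjured count of 6 was 3 without gel 2, uninjured 2 or uninjured 3.

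Among the RNA polymerase I genes, none of the 3 members separated the groups. Polr1a, which encodes the largest subunit, averaged 52.5 ± 9.06 CPM in gel, 57.1 ± 6.79 CPM in PBS and 51.2 ± 0.95 CPM in uninjured libraries (SD, n = 4 each). Its 4 gel libraries ran from 45.4 to 64.8 CPM, and gel library 3 was the highest of the 12. Polr1b, the second-largest subunit, averaged 9.58 ± 1.63 CPM in gel, 11.7 ± 2.10 CPM in PBS and 10.4 ± 1.45 CPM in uninjured libraries. Ubtf, the factor that keeps ribosomal DNA open for polymerase I, averaged 44.2 ± 1.26 CPM in gel, 46.0 ± 2.51 CPM in PBS and 45.5 ± 2.85 CPM in uninjured libraries. The log2 fold changes of gel over PBS were -0.12 ± 0.13 for Polr1a, -0.29 ± 0.17 for Polr1b and -0.06 ± 0.10 for Ubtf. Those of PBS over uninjured were 0.16 ± 0.13 for Polr1a, 0.17 ± 0.17 for Polr1b and 0.01 ± 0.10 for Ubtf. In all 3 genes the libraries of the 3 groups overlapped, and no PBS mean lay below its gel or uninjured mean, unlike that of Rn45s.

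Ncl, which encodes nucleolin, an abundant nucleolar protein that binds the precursor, was lower in gel libraries. It stood at 81.3, 96.8, 83.0 and 92.7 CPM in gel libraries 1 to 4, at 104, 98.6, 115 and 107 CPM in PBS libraries 1 to 4, and at 108, 104, 115 and 105 CPM in uninjured libraries 1 to 4. No gel library reached the lowest PBS or uninjured library, although gel 2 and PBS 2, read as the same animal, differed by -0.03 on the log2 scale. The log2 fold change was -0.26 ± 0.10 for gel over PBS, -0.03 ± 0.10 for PBS over uninjured and -0.29 ± 0.10 for gel over uninjured. The gel over PBS value was -0.28 with DESeq2 and -0.23 with upper-quartile scaling. With library totals alone the 3 values were -0.05, 0.04 and -0.02, but that scaling placed the median over all genes at 0.25 for gel over PBS, where it was 0.04 with TMM scaling (trimmed mean of M values), so Ncl lay below the median gene in both. Npm1, which encodes nucleophosmin, averaged 68.5 ± 10.4 CPM in gel, 67.8 ± 8.81 CPM in PBS and 68.5 ± 4.27 CPM in uninjured libraries (SD, n = 4 each).

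Of the 3 box C/D protein genes, which encode the core proteins around the snoRNAs that guide methylation of ribosomal RNA, Nop56 and Nop58 had their lowest means in PBS libraries and Fbl did not. Nop56 stood at 51.2, 56.0, 45.4 and 43.9 CPM in gel libraries 1 to 4, at 31.5, 33.1, 45.9 and 38.4 CPM in PBS libraries 1 to 4, and at 45.1, 52.7, 45.6 and 50.9 CPM in uninjured libraries 1 to 4. PBS library 3 alone among the PBS libraries reached the range of the other groups. The log2 fold change of Nop56 was 0.40 ± 0.13 for gel over PBS, -0.38 ± 0.13 for PBS over uninjured and 0.02 ± 0.13 for gel over uninjured. Nop58 averaged 8.09 ± 1.03 CPM in gel, 6.76 ± 1.24 CPM in PBS and 9.17 ± 2.14 CPM in uninjured libraries (SD, n = 4 each), and the groups overlapped. Its log2 fold change was 0.26 ± 0.20 for gel over PBS and -0.44 ± 0.20 for PBS over uninjured. The gel over PBS value was 0.13 without PBS library 1, and the PBS over uninjured value was -0.29 without uninjured library 4. Fbl, the methyltransferase of the complex, averaged 14.9 ± 2.37 CPM in gel, 15.2 ± 1.81 CPM in PBS and 14.99 ± 2.02 CPM in uninjured libraries. Introns of Nop56 and Nop58 also carry snoRNAs, so their rows may hold reads of both kinds.

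**Figure D2:**
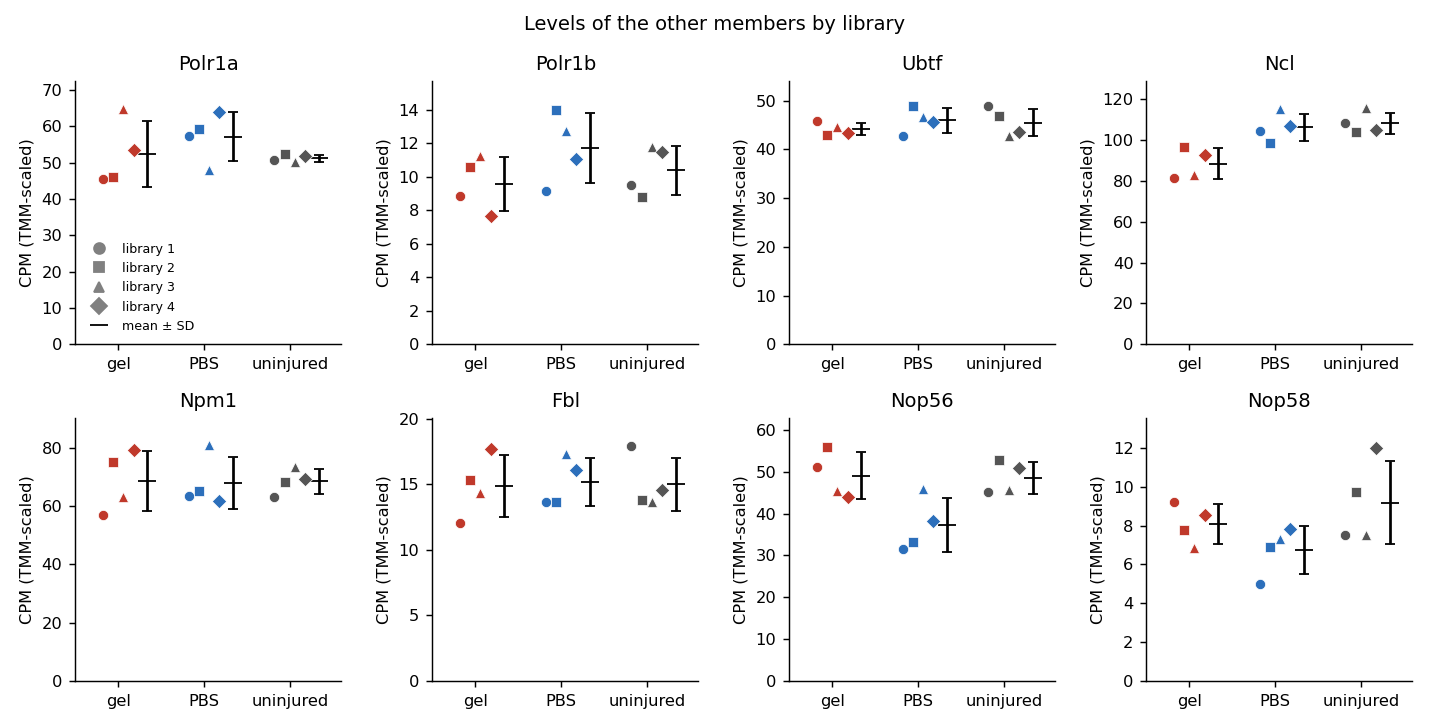
Levels of the other 8 members in CPM in gel, PBS and uninjured libraries, with 1 symbol for each library, the bar showing mean ± SD (n = 4) and each axis starting at 0. Of these genes only Ncl separates gel from the other groups, at 81.3 to 96.8 CPM in gel libraries against 98.6 to 115 CPM in PBS libraries.

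Counted with edgeR's quasi-likelihood test and Benjamini-Hochberg adjustment, 2 of the 10 members passed 0.05 in gel over PBS, Rn45s and Nop56, both higher in gel, where 29.8% of all genes tested passed and 16.6% passed higher. For PBS over uninjured 2 passed, Rn45s and Myc, both lower in PBS, where 6.17% of all genes passed and 3.39% passed lower. In gel over uninjured 0 passed, where 25.6% of all genes passed. In that comparison 2 members had an unadjusted edgeR p under 0.05, and DESeq2 and limma voom each called 1. The gel over PBS count was 1 without gel 1, gel 2, PBS 1, PBS 2 or PBS 4, and 1 with animal as a block, and the gel over uninjured count was 1 without gel 2, gel 3, gel 4, PBS 3 or PBS 4. Nothing is read from these counts, because the members were named with such results known. The groups did not overlap for Rn45s and Ncl in gel over PBS, where 20.1% of all genes did not overlap, 10.4% with gel higher and 9.74% with gel lower. They did not overlap for Rn45s and Myc in PBS over uninjured, where the share was 20.6% and the share lower in PBS 10.2%, or for Ncl in gel over uninjured, where the share was 23% and the share lower in gel 11.7%.

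**Figure D3:**
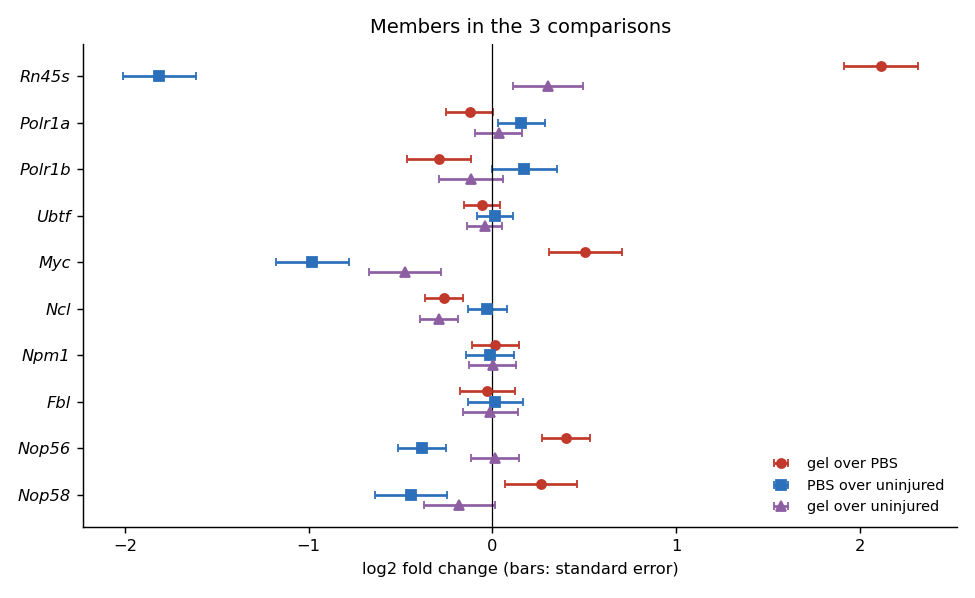
Log2 fold change of each member (rows) for gel over PBS, PBS over uninjured and gel over uninjured, with bars showing the standard error. Rn45s lies at 2.12 for gel over PBS and -1.81 for PBS over uninjured, while Npm1, Fbl and Ubtf lie within 0.06 of 0 in all 3 comparisons.

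In the wider set of ribosome assembly genes, few rose in gel over PBS, where Rn45s was higher. It held 138 genes besides the members, all of them tested: 18 of polymerase I, 13 of snoRNA-bound protein complexes, 47 of small-subunit assembly, 49 of large-subunit assembly and 11 other nucleolar proteins. In gel over PBS 4 rose (2.9%) and 18 fell (13%), where 16.6% of all genes tested rose and 13.2% fell, so the share that fell was that of all genes and the share that rose was below it. The median log2 fold change was -0.12, against 0.04 over all genes. Between PBS and uninjured libraries 0 rose and 2 fell (1.45%, against 3.39% of all genes), with a median of -0.01. In gel over uninjured 3 rose (2.17%, against 14.5% of all genes) and 14 fell (10.1%, against 11.1%), with a median of -0.14, where the median over all genes was 0.03. The 18 polymerase I genes had a median of 0.07 in gel over PBS, with 13 above 0, and of -0.18 in PBS over uninjured, with 4 above 0. Of these 18, 1 rose and 1 fell in gel over PBS (5.56% each, against 16.6% and 13.2% of all genes). In PBS over uninjured 0 of them were called, against 6.17% of all genes. Their mean log2 level relative to the uninjured mean was -0.28, -0.23, 0.00 and -0.03 in PBS libraries 1 to 4. Among all 138 genes the direction of the calls flipped with library totals alone. The split was then 2 higher and 0 lower in PBS over uninjured. It was 15 higher and 9 lower in gel over PBS with a median of 0.08, and 11 higher and 2 lower in gel over uninjured with a median of 0.12. The median over all genes then stood at 0.25 in gel over PBS and 0.30 in gel over uninjured, above that of the assembly genes in both.

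The 18 that fell in gel over PBS came from all 5 groups. Rrn3, the factor that brings polymerase I to the ribosomal DNA promoter, stood at 23.2, 24.7, 31.0 and 22.7 CPM in gel libraries 1 to 4, at 35.6, 35.7, 33.7 and 37.1 CPM in PBS libraries 1 to 4, and at 33.2 to 42.1 CPM in uninjured libraries. It fell by 0.48 ± 0.12 in gel over PBS (edgeR adjusted p = 0.00837) and by 0.56 ± 0.12 in gel over uninjured (edgeR adjusted p = 0.00412). Ddx24, a helicase of large-subunit assembly, fell by 0.56 ± 0.12 in gel over PBS (edgeR adjusted p = 0.00425) and by 0.59 ± 0.12 in gel over uninjured (edgeR adjusted p = 0.00303). The pseudouridine synthase gene Dkc1 fell by 0.62 ± 0.16 in gel over PBS, the snoRNA-binding protein gene Snu13 by 0.52 ± 0.14, and the small-subunit methyltransferase gene Emg1 by 0.65 ± 0.17. The large-subunit genes Bop1 and Noc2l fell by 0.53 ± 0.13 and 0.52 ± 0.12, and the small-subunit gene Rrp12 by 0.54 ± 0.15. The edgeR adjusted p of these last 6 ran from 0.00668 to 0.0137. The direction and the call of these 8 genes held in all 21 alternatives for gel over PBS. The count of 22 called in that comparison was 36 without gel 3 and 14 with animal as a block, all 14 lower. For Bop1, PBS libraries were also high. It had 15.9 to 23.7 CPM in gel, 25.03 to 30.6 CPM in PBS and 20.8 to 24.8 CPM in uninjured libraries. Every PBS library of Bop1 thus lay above every uninjured library. In the same order, Rrp12 had 18.8 to 30.5, 29.96 to 38.2 and 24.4 to 32.1 CPM. Among these 8 genes, PBS and uninjured libraries overlapped for all but Bop1.

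The 4 that rose in gel over PBS were Polr1c, Nat10, Riok1 and Wdr74. Polr1c encodes a subunit of polymerases I and III, Nat10 an RNA acetyltransferase and Riok1 a kinase, and Wdr74 is a large-subunit gene. Polr1c had 5.92 to 7.14 CPM in gel, 3.54 to 4.79 CPM in PBS and 4.77 to 7.17 CPM in uninjured libraries. In the same order, Wdr74 had 12.77 to 15.73, 8.05 to 12.85 and 14.04 to 15.96 CPM. Nat10 had 19.6 to 29.7, 16.03 to 21.97 and 16.5 to 21.7 CPM, and Riok1 8.85 to 12.1, 5.38 to 8.28 and 7.504 to 10.8 CPM. Gel and uninjured libraries overlapped for all 4 genes. Polr1c rose by 0.61 ± 0.19 (edgeR adjusted p = 0.0237), and its adjusted p was 0.0525 without gel 1, 0.0686 without gel 2, 0.0504 without gel 4 and 0.0717 without PBS 4. Nat10 rose by 0.47 ± 0.15 (edgeR adjusted p = 0.0315), and its adjusted p was 0.0969 without gel 2, 0.051 without gel 3, 0.0892 without gel 4, 0.0973 without PBS 2 and 0.102 without PBS 3. Riok1 rose by 0.54 ± 0.18 (edgeR adjusted p = 0.0328), and its adjusted p was 0.118 without gel 2, 0.086 without gel 4, 0.0791 without PBS 2 and 0.103 without PBS 3. Wdr74 rose by 0.46 ± 0.15 (edgeR adjusted p = 0.0324), and its adjusted p was 0.0599 without gel 1, 0.109 without gel 4, 0.101 without PBS 1 and 0.093 without PBS 2. With animal as a block the adjusted p was 0.0641 for Polr1c, 0.0888 for Nat10, 0.0617 for Riok1 and 0.066 for Wdr74, so no rise was called.

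The 2 assembly genes that fell in PBS over uninjured were Mdn1, a large-subunit remodelling enzyme, by 0.79 ± 0.20 (edgeR adjusted p = 0.0318), and Gnl2, a nucleolar GTPase, by 0.37 ± 0.10 (edgeR adjusted p = 0.0385). Of these 2 calls, 0 were left without PBS 1, PBS 2, PBS 3, uninjured 3 or uninjured 4, and 1 without uninjured 1 or uninjured 2, while 6 genes were called without gel 3. With library totals alone the adjusted p was 0.066 for Mdn1 and 0.118 for Gnl2. The adjusted p of Mdn1 reached 0.123 without uninjured 3, and that of Gnl2 reached 0.119 without uninjured 3. In gel over uninjured the count of 17 was 11 without gel 1, 6 without gel 2, 27 without gel 3, 8 without gel 4, 6 without uninjured 1, 9 without uninjured 2 and 8 without uninjured 3.

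**Figure D4:**
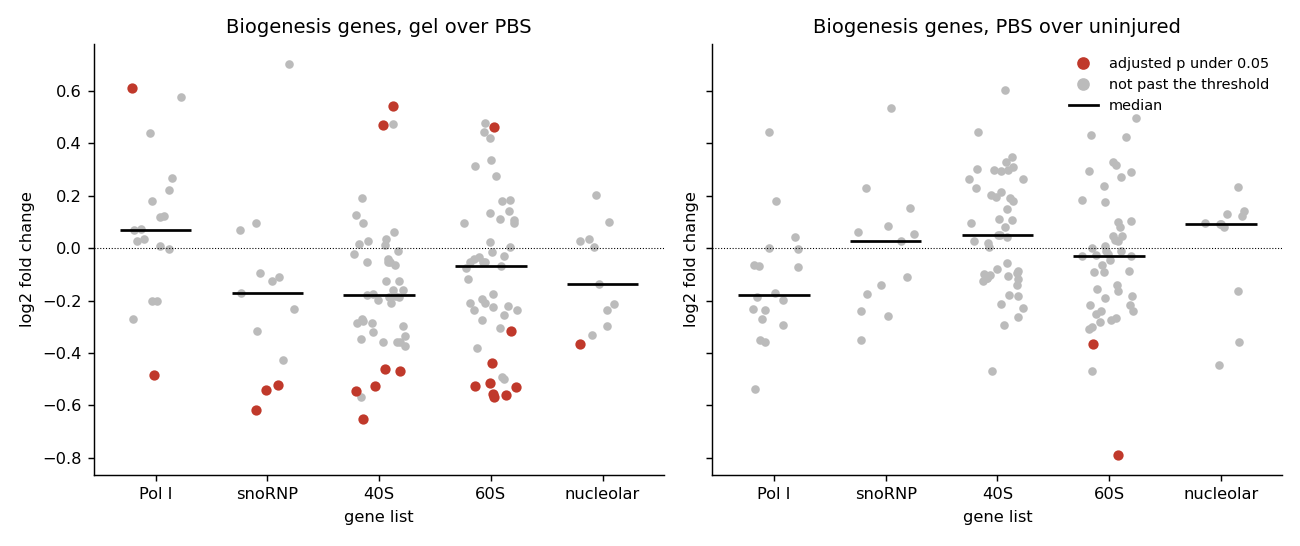
Log2 fold change of the 138 ribosome assembly genes other than the members, 1 point for each gene, in 5 lists, for gel over PBS (left) and PBS over uninjured (right); red points passed an edgeR adjusted p of 0.05, black lines are medians, and the 40S and 60S lists hold small- and large-subunit assembly genes. In gel over PBS 18 red points lie below 0 and 4 above, and in PBS over uninjured 2 lie below 0.

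The promoters of a few of these genes are shown because the MYC-MAX pair binds the palindrome CACGTG, which reads the same on both strands. Promoter windows ran from 250 bases before to 50 bases after each gene's start in RefSeq's annotation of the build GRCm38.p6, and a window existed for 6 of the 10 members and 118 of the 138 assembly genes. The palindrome was found in 24 of those 118 genes (20.3%), against 8.09% of all 27025 genes with a window. It was found in 0 of the 6 members and in 4 of the 14 genes around MYC. Max, which fell in PBS libraries, and Rrn3, which fell in gel libraries, hold it. Nop56, lowest in PBS libraries, does not hold these letters in its window. A match of letters is a description and not a bound site. The windows are given 5′ to 3′ on the gene's strand, in lower case with CACGTG in capitals.
Max, chr12:76962199-76962498, minus strand: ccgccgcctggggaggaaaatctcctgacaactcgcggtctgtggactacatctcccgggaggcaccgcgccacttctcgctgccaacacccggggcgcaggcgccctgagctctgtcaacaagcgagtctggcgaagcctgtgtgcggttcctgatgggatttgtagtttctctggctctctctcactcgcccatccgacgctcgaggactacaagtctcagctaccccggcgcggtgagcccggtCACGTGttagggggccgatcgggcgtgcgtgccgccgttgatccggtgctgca
Rrn3, chr16:13780449-13780748, plus strand: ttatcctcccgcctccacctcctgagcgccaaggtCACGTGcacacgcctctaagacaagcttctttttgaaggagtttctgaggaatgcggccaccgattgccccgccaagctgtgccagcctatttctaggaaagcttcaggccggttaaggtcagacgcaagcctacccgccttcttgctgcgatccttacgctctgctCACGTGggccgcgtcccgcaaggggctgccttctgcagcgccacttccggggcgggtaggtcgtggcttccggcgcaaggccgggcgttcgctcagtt
Nop56, chr2:130274162-130274461, plus strand: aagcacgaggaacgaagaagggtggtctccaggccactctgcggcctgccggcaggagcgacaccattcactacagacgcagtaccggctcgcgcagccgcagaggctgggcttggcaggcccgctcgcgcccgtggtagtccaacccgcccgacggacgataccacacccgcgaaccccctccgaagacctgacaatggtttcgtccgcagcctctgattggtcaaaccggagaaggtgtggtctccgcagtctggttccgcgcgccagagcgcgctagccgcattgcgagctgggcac

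Ribosomal protein genes moved in the direction of Rn45s. Of 81 tested, 33 rose (40.7%, against 16.6% of all genes) and 0 fell in gel over PBS, with a median log2 fold change of 0.32. In PBS over uninjured 0 rose and 15 fell (18.5%, against 3.39% of all genes), with a median of -0.35. In gel over uninjured 3 rose and 3 fell (3.7% each, against 14.5% and 11.1% of all genes), with a median of -0.02. Rpl39 had 50.1 to 72.2 CPM in gel, 24.1 to 35.0 CPM in PBS and 38.7 to 43.5 CPM in uninjured libraries, and it rose by 1.02 ± 0.14 in gel over PBS (edgeR adjusted p = 0.00108). Rpl31 fell by 0.59 ± 0.12 in PBS over uninjured (edgeR adjusted p = 0.0104). The count of 33 was 18 without gel 2, 15 without gel 4, 18 without PBS 1, 17 without PBS 2 and 18 with animal as a block. The count of 15 was 9 without gel 2, 34 without gel 3, 2 without PBS 1, 1 without PBS 2, 5 without uninjured 1, 3 without uninjured 2, 2 without uninjured 3 and 1 without uninjured 4. The count of 6 in gel over uninjured was 3 without gel 2 and, with library totals alone, 15, all higher. Ribosomal protein genes have many pseudogenes, so their rows may share reads with copies.

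**Figure D5:**
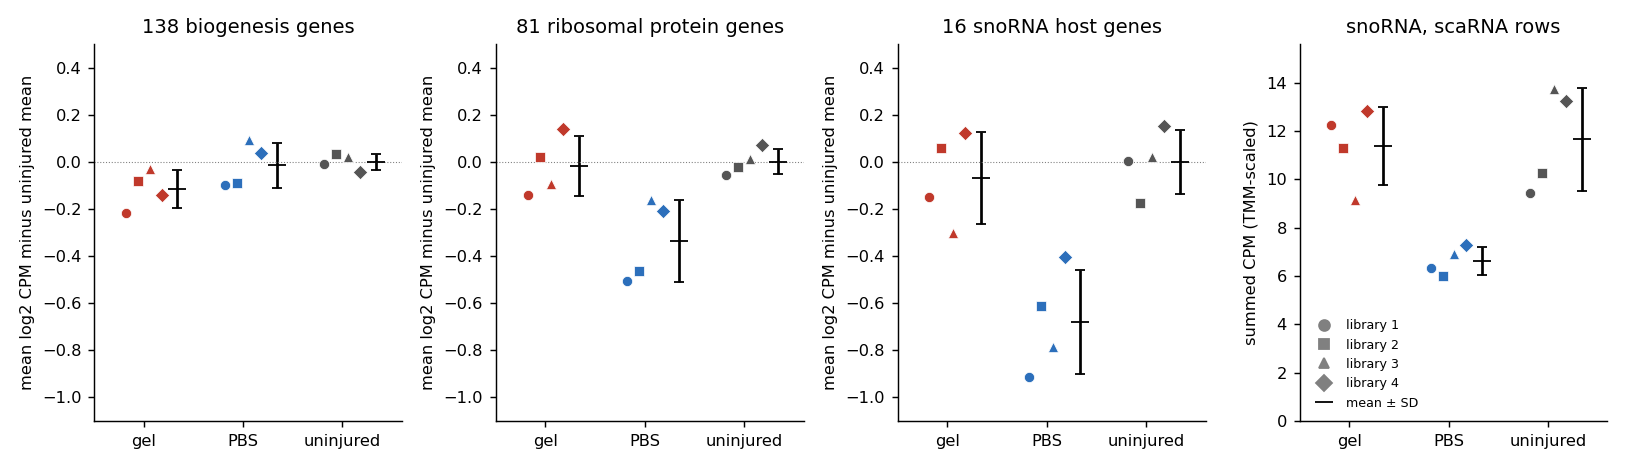
Level of 138 ribosome assembly genes, 81 ribosomal protein genes and 16 snoRNA host genes in each library, as mean log2 CPM minus the uninjured mean, and the summed CPM of 124 snoRNA and scaRNA rows, with 1 symbol for each library and the bar showing mean ± SD (n = 4). The PBS libraries lie lowest for the snoRNA host genes (-0.91 to -0.40) and the snoRNA and scaRNA rows (5.98 to 7.26 CPM). They also lie lowest for the ribosomal protein genes, at -0.51 to -0.16, where the lowest gel library lies at -0.14. For the assembly genes the PBS libraries overlap both other groups.

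RNA polymerase III makes the remaining ribosomal RNA and transfer RNA. Of its 22 genes, 1 rose and 5 fell in gel over PBS (22.7% lower, against 13.2% of all genes), and 0 rose and 3 fell in gel over uninjured (13.6% lower, against 11.1%). In PBS over uninjured 0 were called by edgeR, DESeq2 or limma voom, and 3 had an unadjusted edgeR p under 0.05. Maf1, the repressor of polymerase III, had 48.9 to 72.5 CPM in gel, 85.9 to 104 CPM in PBS and 91.6 to 105 CPM in uninjured libraries. It fell by 0.69 ± 0.13 in gel over PBS (edgeR adjusted p = 0.00279) and by 0.75 ± 0.13 in gel over uninjured (edgeR adjusted p = 0.00124). Gtf3a, the factor for the small ribosomal RNA gene of polymerase III, fell by 0.84 ± 0.21 in gel over PBS (edgeR adjusted p = 0.00964). With library totals alone 3 were higher and 2 lower in gel over PBS, and 1 higher and 1 lower in gel over uninjured, while Maf1 fell in both. The count of 6 in gel over PBS was 10 without gel 3 and 2 with animal as a block. The count of 3 in gel over uninjured was 7 without gel 3, and 1 without gel 2, gel 4, uninjured 1, uninjured 2 or uninjured 3.

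Across the 12 libraries, 12313 genes with a mean of at least 1 CPM were ranked by the Pearson correlation of their log2 CPM with that of a member, a description over libraries that share depth and scaling. Among the 5 most like Rn45s were Smdt1 (r = 0.948), Srek1 (0.947) and Col7a1 (0.943). The 5 most like Myc were B4galt3 (r = 0.919), Sfpq (0.910), Fam207a (0.902), Rpl31 (0.901) and Procr (0.900). The 5 most like Ncl were Zfyve1 (r = 0.909), Ppp4r2 (0.908), Mstn (0.895), Gkap1 (0.895) and Agps (0.888).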

How the data were processed

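The deposited values were counts of reads per gene symbol, 1 table for each of 12 libraries, not normalised by the authors. Extraction and library construction were done by BGI, per the labels. STAR, edgeR and the build mm39 are named in the submitters' processing notes, without versions. No source used here gives the counting program, whether it used strand, how it treated multiply matching reads, or the library type, so overlapping, antisense and near-identical genes cannot be told apart. Of the counts between 1 and 50 in a library, 74.0% to 83.5% were even numbers. Whether both mates of a read pair were counted is not given, so counts may exceed the number of fragments, and counting error may be larger than the counts imply. Coordinates are given for promoter windows only, in GRCm38.p6, and were not mixed with the build of the counts.

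The analysis used edgeR 4.0.16 (R 4.3.3). filterByExpr kept 13499 of 26264 genes, and TMM factors (trimmed mean of M values) scaled the libraries. A robust quasi-likelihood model was fitted to all 12 libraries with 3 groups (9 residual degrees of freedom). The adjustment of p-values was Benjamini-Hochberg's over all genes tested, and a gene past 0.05 is said to be called, to have risen or to have fallen. The standard error (SE) of a log2 fold change is its size divided by the square root of F. CPM were computed on scaled totals, with a prior count of 2 for log2 CPM. Libraries of the same group all differed by more than sampling noise. The p-values measure the spread between libraries of the same group, estimated jointly over all 3 groups. The spread of gel libraries therefore also enters the p-values of PBS over uninjured. Precision from counts covers counting error only. The procedure was tested on simulated data.

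The members and the gene lists were chosen with earlier results of these data known. Besides the members, the rule for names allowed up to 4 genes of smallest p for each list and comparison, the genes around MYC, marker genes, and the 5 genes most like Rn45s, Myc and Ncl, of which some are not reported here.

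Gel and PBS libraries of the same number were read as the same animal, because the deposited names share a number with a letter for the left or right leg. Deviations from group means correlated by 0.14, -0.06, 0.31 and 0.08 within the 4 same-numbered pairs. Pairs of unlike number ran from -0.27 (gel 3 with PBS 1) to 0.20 (gel 4 with PBS 1), so the correlations do not settle this reading. The fit without a block was used, as no source states another, and the fit with animal as a block is given where it ended a call or moved a count. Alternatives were DESeq2 1.42.0, voom from limma 3.58.1, other scalings and filters, 2 groups alone, ribosomal RNA rows left out, and each library left out in turn.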

Additional observations from a re-analysis of the deposited data

Results flagged for a closer look

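Among 51 sets of 4 libraries checked, 2 had a library far from the others by Dixon's criterion, and chance gives about 1 in 20. The mean log2 level of 6 cycling genes in uninjured library 3 was -0.51 relative to the uninjured mean, where the other 3 uninjured libraries lay at 0.12 to 0.22. The mean log2 level of 7 fibre genes in PBS library 4 was -0.36 relative to the uninjured mean, where the other 3 PBS libraries lay at 0.01 to 0.03. In PBS library 4 Rn45s stood at 36.4 CPM, the highest of the PBS libraries.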

How the results depend on the processing

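No fold change of a member that was called changed sign under any alternative. Of the member fold changes recomputed, 593 stayed within the spread and 14 moved, all 14 with library totals alone, which shifted the median over all genes by more than 0.1 in both comparisons with gel. With that scaling 3401 genes were called higher and 1009 lower for gel over PBS, against 2236 and 1786 with TMM. The numbers were 755 and 343 for PBS over uninjured, against 376 and 457 with TMM, and 3795 and 693 for gel over uninjured, against 1951 and 1498 with TMM. Genes called in gel over PBS numbered 4022, 2559 with only the 2 groups and 2456 to 5962 with 1 library left out. In PBS over uninjured they numbered 833, 1415 with DESeq2, 2339 with only the 2 groups and 378 to 1693 with 1 library left out. In gel over uninjured they numbered 3449, and 2275 to 5341 with 1 library left out. Assembly genes called numbered 22 in gel over PBS, 14 with only the 2 groups, 14 with the replicate block and 15 to 36 with 1 library left out. In PBS over uninjured they numbered 2, 1 with no filter, 9 with only the 2 groups and 0 to 6 with 1 library left out. In gel over uninjured they numbered 17, and 6 to 27 with 1 library left out. Among all genes the replicate block gave 2971 calls. No block was fitted for comparisons with uninjured muscle, whose libraries were not matched to injected animals. Differences between animals were not separated from the group difference there. Ribosomal protein genes called numbered 33 in gel over PBS, 60 with library totals alone and 18 with only the 2 groups. In PBS over uninjured they numbered 15, 30 with DESeq2, 5 with library totals alone, 9 with no filter and 49 with only the 2 groups. The snoRNA host genes called numbered 5 in gel over PBS, 8 with library totals alone, and 4 in PBS over uninjured, 7 with DESeq2 or only the 2 groups. Genes described as MYC targets called in PBS over uninjured numbered 2, 4 with DESeq2 and 6 with only the 2 groups, and genes around MYC 2, 4 with only the 2 groups. Polymerase III genes called in gel over PBS numbered 6, 3 with only the 2 groups, and ribosomal protein genes in gel over uninjured 6, 10 with DESeq2. Members called in gel over PBS numbered 2, and 1 with no filter or only the 2 groups. The causes were not tested.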
